A study of Mus musculus with 12 samples.

Results

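The interferon-inducible GTPases Irgm1, Irgm2, Igtp, Iigp1, Gbp2, Gbp3, Gbp7, Mx1 and Mx2 were followed by gene symbol through the RNA-seq counts of B16F10 cells, and these 9 genes were all found among the 24421 genes counted. B16F10 is a transplantable melanoma line of the mouse. Cells were given vehicle, 5-aza-2′-deoxycytidine (DAC, an inhibitor of DNA methyltransferases), sulforaphane (SFN, an isothiocyanate from cruciferous vegetables that is studied as an inhibitor of histone deacetylases), or both drugs. Stranded 75-base single reads of mRNA were obtained for 12 libraries, 3 in each of the 4 groups. Control cells received DMSO (0.025% by the labels), DAC single treatment was 25 nM for 72 h, and SFN single treatment lasted 48 h. In the combination treatment (DAC+SFN), 25 nM DAC was given for 72 h with 5 µM SFN for the last 48 h. The labels give SFN single treatment as 5 nM, whereas the methods of the study give the same micromolar dose for both uses of SFN, so by the labels alone the SFN dose differs between these groups. The repeats are described as independent biological repeats of the culture.

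Interferons bind receptors at the cell surface, which activate JAK kinases, and the signal then reaches transcription factors. Some of these bind interferon-stimulated response elements (ISRE) in promoters, and others, active above all after interferon gamma, bind gamma-activated sites (GAS). The GTPases described here are among the proteins most strongly made in response. Immunity-related GTPases (Irgm1, Irgm2, Igtp and Iigp1) and guanylate-binding proteins (Gbp2, Gbp3 and Gbp7) act on the membranes of vacuoles that hold pathogens, and Mx proteins block the replication of RNA viruses.

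The sequences before the start sites of 6 members show which interferon-related letters lie there. Iigp1 was left out, and Mx1 and Mx2 had no promoter entry. The sequences were read from RefSeq on GRCm38.p6, the mm10 build to which the reads had been aligned. Each was taken as the 120 bases before the annotated start, 5′ to 3′ on the strand of the gene. Capitals mark each match to the ISRE core (GAAA repeated after any 2 bases), searched on both strands, and to the GAS letters TTCNNNGAA, which read the same on both strands. Matches of these 2 motifs did not overlap each other, although 2 ISRE cores overlapped in Irgm1 and in Gbp3. The stretches were chr11:48871421-48871540 (minus strand) for Irgm1, chr11:58214857-58214976 (plus strand) for Irgm2, chr11:58199436-58199555 (plus strand) for Igtp, chr3:142620543-142620662 (plus strand) for Gbp2, chr3:142559924-142560043 (plus strand) for the first of 2 starts of Gbp3, and chr3:142530216-142530335 (plus strand) for Gbp7.
Irgm1: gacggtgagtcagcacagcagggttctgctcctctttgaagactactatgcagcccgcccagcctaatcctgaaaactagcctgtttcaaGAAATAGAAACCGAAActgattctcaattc
Irgm2: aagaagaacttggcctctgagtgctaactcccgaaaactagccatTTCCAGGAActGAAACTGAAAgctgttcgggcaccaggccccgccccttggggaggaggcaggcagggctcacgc
Igtp: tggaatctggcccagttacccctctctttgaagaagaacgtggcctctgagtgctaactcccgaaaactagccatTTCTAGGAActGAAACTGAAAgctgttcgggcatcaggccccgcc
Gbp2: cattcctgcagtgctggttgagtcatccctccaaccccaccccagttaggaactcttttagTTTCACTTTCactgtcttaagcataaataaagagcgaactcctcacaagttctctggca
Gbp3: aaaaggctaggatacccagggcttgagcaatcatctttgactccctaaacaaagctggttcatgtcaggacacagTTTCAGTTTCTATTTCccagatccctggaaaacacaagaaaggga
Gbp7: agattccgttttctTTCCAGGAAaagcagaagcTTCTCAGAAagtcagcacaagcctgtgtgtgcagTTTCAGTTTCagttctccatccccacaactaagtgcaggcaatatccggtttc

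An ISRE core lay within 64 bases before the start in each of these 6 genes. Over windows of 250 bases before to 50 bases after the start, 6 of the 7 promoters of these genes held an ISRE core, the second start of Gbp3 being the exception, against 3.44% of all 32851 promoters in the table. A GAS match was present in Igtp, Irgm2 and, with 2 copies, Gbp7, against 8.30% of all promoters, and both motifs were together in 0.454% of all promoters. The promoters of Igtp and Irgm2 were identical at 244 of 300 bases (81.3%), and in both the GAS match stood 2 bases before the ISRE core. Every other pair was identical at 48.3% to 56.3%. CG dinucleotides, the sites at which DNA is methylated, numbered 2 in each Gbp2 and Gbp3 promoter, 8 in Gbp7, 9 in Igtp and Irgm2, and 11 in Irgm1, with a median of 7 over all promoters. These matches describe letters and not bound sites and do not cover Iigp1, Mx1 and Mx2, and methylation was not measured.

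The members lie in clusters. By GENCODE M21 on mm10, Gbp7 (chr3:142530342-142550149), Gbp3 (chr3:142560026-142573209) and Gbp2 (chr3:142620602-142638008) are neighbors on chromosome 3. Igtp (chr11:58199556-58207591) and Irgm2 (chr11:58199618-58222782) overlap on the plus strand of chromosome 11, which also holds Irgm1 (chr11:48861968-48871683, minus strand). Mx1 (chr16:97447035-97462907, minus strand) and Mx2 (chr16:97535308-97560900) are on chromosome 16, and Iigp1 (chr18:60376027-60392634) is on chromosome 18. Igtp and Irgm2 share 162 exonic bases, 8.01% of the exonic length of Igtp and 4.39% of that of Irgm2, so a part of their counts is uncertain. Of the 75-base windows in the transcripts, 11.3% in Gbp7, 7.80% in Igtp, 4.78% in Irgm2, 2.06% in Gbp3, 2.01% in Mx2, 1.71% in Mx1 and 0.955% in Gbp2 are found in another gene too, and no window of Irgm1 or Iigp1 is. Mx2 is listed as a polymorphic pseudogene, and Mx1 and Mx2 are known to carry defective alleles in many laboratory strains, so for both the transcript does not stand for the protein. The Entrez numbers deposited beside Gbp2, Gbp3 and Gbp7 belong to other genes of the family in RefSeq (Gbp4, Gbp2b and Gbp3), whereas those of the other 6 members matched. The numbers beside Gbp2 and Gbp3 were given to 4 and 2 symbols. The symbol was taken as the identity of the row, and the rows named Gbp4 and Gbp2b held at most 5 and 6 counts in any library. These low counts cannot tell whether the symbol or the number is right, since by the number those genes would be counted in other rows.

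Totals ran from 15880957 to 27291436 counts per library, and 1 CPM (a count scaled to the TMM-adjusted library total) stood for 16 to 27 counts. All 9 members passed the filter of 1 CPM in 3 libraries, Iigp1 only through 3 of the replicate 3 libraries. Melanocyte markers were abundant, as 8 of 8 were tested and their summed level lay between 22415 and 31193 CPM. Of 8 immune markers only Lyz2 passed the filter, and the summed level was 1.16 to 2.67 CPM in control, 1.45 to 3.06 with DAC, 1.46 to 4.89 with SFN and 2.37 to 5.26 with the combination treatment. Adgre1 and Nkg7 were at 0 counts in every library, and Ptprc had at most 2. Of 8 stromal and endothelial markers 3 passed the filter, Cdh5 was at 0 and Dcn at no more than 1 count. In these bulk samples, fewer cells of a type and less RNA per cell cannot be told apart.

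Per exonic length, the GTPases were weakly expressed in control cells. Irgm1 was the highest, with 6.93 ± 3.77 RPKM (CPM divided by the exon length in kilobases, mean ± SD, n = 3). Gbp2 followed with 4.82 ± 1.76, Irgm2 with 3.02 ± 2.51, Gbp3 with 2.76 ± 1.38, Igtp with 2.09 ± 2.01, Gbp7 with 1.38 ± 0.975, Mx1 with 1.28 ± 0.772, Mx2 with 0.927 ± 0.882 and Iigp1 with 0.0693 ± 0.0940 RPKM. The gap between the means of each pair of neighbors in this order was smaller than the larger of their 2 SDs. The genes of the same families that were outside the 9 were mostly below the filter. Of 14 such genes only Ifi47, Irgq and Gbp6 passed the filter, and Gvin1 was at 0 counts in all 12 libraries.

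The main question put to these genes was whether each drug, alone and together, changed their transcripts. Across all 12 libraries, with the effect of DAC averaged over cells without and with SFN, 6 of the 9 GTPases rose at an adjusted p under 0.05, and 3.07% of the 11638 genes tested rose at that threshold. Those 6 were Irgm1, Irgm2, Igtp, Gbp3, Gbp7 and Mx2, by 1.56-fold, 1.89-fold, 2.04-fold, 1.53-fold, 1.60-fold and 2.12-fold. SFN, averaged over cells without and with DAC, raised only Gbp2 among the 9 (1.44-fold, with 16.1% of all genes higher) and lowered only Mx1 (to 0.705 of its level, with 13.5% of all genes lower). No member was called at a greater than 2-fold change with SFN on average, where 1.19% of all genes were called. The fall of Iigp1 (to 0.429 of its level, adjusted p = 0.0744) did not pass. Each test came from edgeR's quasi-likelihood F-test with the replicate number as a block, adjusted by Benjamini-Hochberg over all genes tested. Without the block no member passed in any comparison, and with all 4 libraries of replicate 1 left out none of the 9 passed for DAC.

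**Figure D1:**
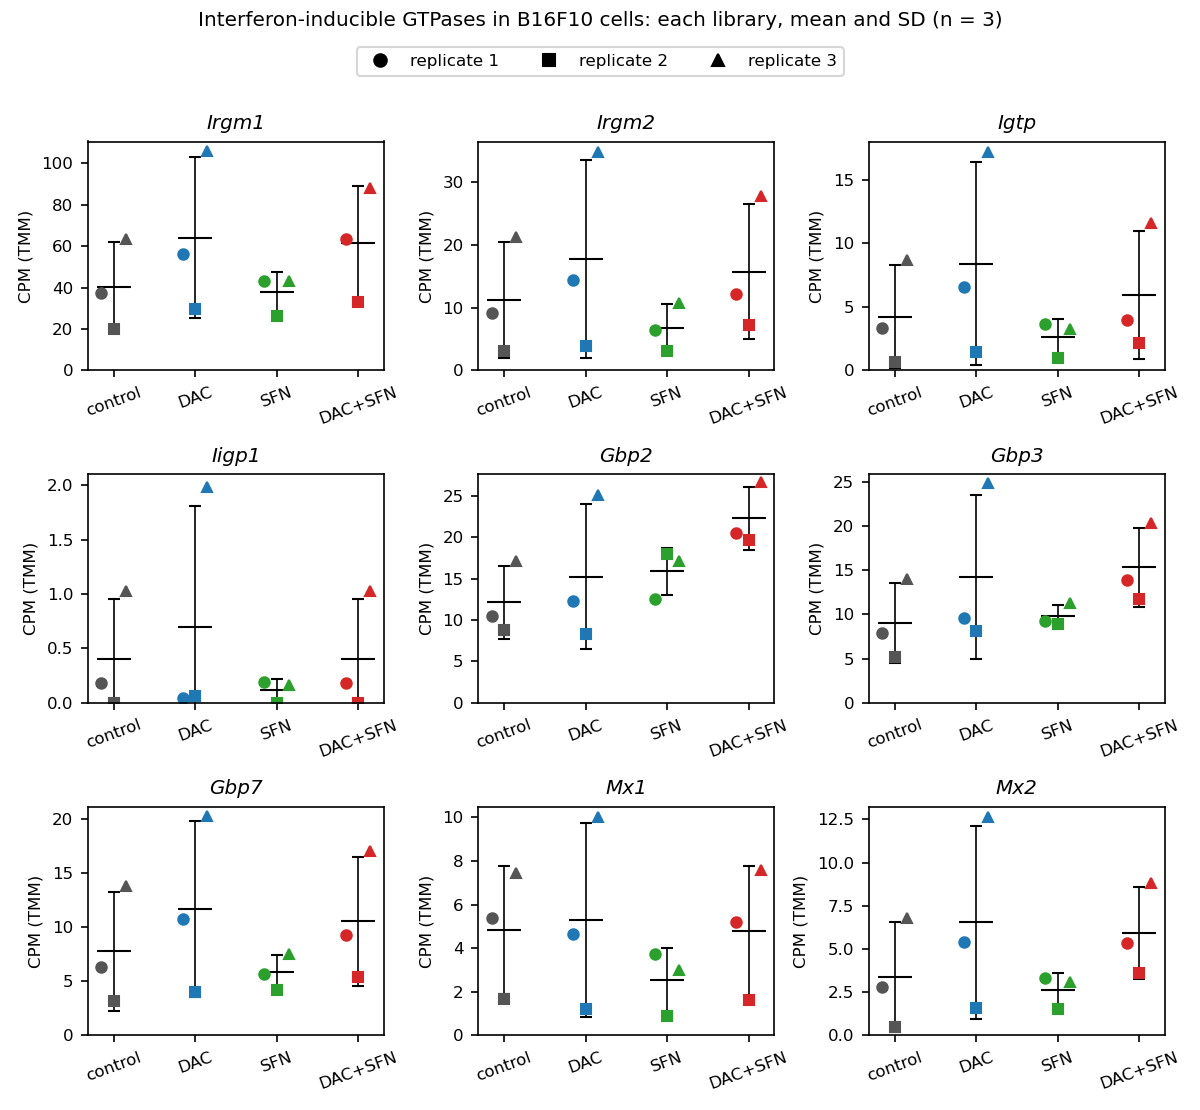
Normalized expression (TMM-scaled CPM, linear axes from 0) of the 9 GTPases in each of the 12 libraries, by group, with marker shape for the replicate number, horizontal bars for the mean and vertical bars for the SD (n = 3). Replicate 2 is the lowest library of its group in all 4 groups for 7 of the 9 genes.

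Among the immunity-related GTPases, Irgm1 is a regulator that restrains the effector members and takes part in autophagy and mitochondrial quality control. In replicates 1, 2 and 3, its expression in CPM was 37.1, 20.1 and 63.6 in the control libraries, 56.4, 29.6 and 106 in the DAC libraries, 43.3, 26.3 and 43.1 in the SFN libraries, and 63.5, 33.2 and 88.1 in the combination libraries. The DAC library was above the control library of the same replicate in all 3 replicates, and the combination library above the SFN library likewise, although the ranges of all groups overlapped. DAC averaged over both SFN states raised Irgm1 (log2 fold change 0.64 ± 0.11 (SE), adjusted p = 0.00465), and so did the combination treatment compared to control (0.65 ± 0.15 (SE), adjusted p = 0.00470) and compared to SFN (0.63 ± 0.15 (SE), adjusted p = 0.0491). Compared to control, DAC single treatment gave 0.65 ± 0.15 (SE), adjusted p = 0.11, which did not pass. SFN single treatment gave 0.016 (95% interval -0.31 to 0.34).

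Irgm2 is another regulatory member, located at the Golgi and on vacuole membranes. Its CPM values in replicates 1, 2 and 3 were 9.15, 3.05 and 21.3 in the control libraries, 14.4, 3.89 and 34.8 in the DAC libraries, 6.35, 3.12 and 10.8 in the SFN libraries, and 12.1, 7.23 and 27.8 in the combination libraries. The values spread several fold within each group, and replicate 3 was the highest in every group. Within each replicate the combination library was above the SFN library, by 0.92, 1.19 and 1.36 on the log2 scale. This was the only member called at a greater than 2-fold change in that comparison (log2 fold change 1.19 ± 0.20 (SE), adjusted p = 0.0223), where 0.112% of all genes were called. Irgm2 also rose with DAC on average (0.92 ± 0.14 (SE), adjusted p = 0.00330) and in combination-treated cells compared to control (0.60 ± 0.19 (SE), adjusted p = 0.0263). With SFN single treatment the log2 fold change was -0.59 ± 0.20 (SE), adjusted p = 0.0668.

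Igtp, also named Irgm3, is the third regulator and shares the overlapping locus with Irgm2. Igtp measured, in CPM of replicates 1, 2 and 3, 3.31, 0.688 and 8.68 in the control libraries, 6.58, 1.47 and 17.2 in the DAC libraries, 3.67, 0.978 and 3.23 in the SFN libraries, and 3.96, 2.15 and 11.6 in the combination libraries. Replicate 2 was the lowest of each group, with 16 to 45 counts. Averaged over SFN, DAC raised Igtp by more than 2-fold (log2 fold change 1.03 ± 0.22 (SE), adjusted p = 0.0168), one of 2 members called in a comparison where 0.172% of all genes were called. In the pairs of groups it did not pass, at 1.00 ± 0.29 (SE), adjusted p = 0.215 for DAC against control and 1.05 ± 0.32 (SE), adjusted p = 0.101 for the combination against SFN.

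Iigp1, also named Irga6, is the effector that coats pathogen vacuoles and breaks their membrane. It was barely detected, and its counts in replicates 1, 2 and 3 were 4, 0 and 20 in the control libraries, 1, 1 and 53 in the DAC libraries, 4, 0 and 4 in the SFN libraries, and 4, 0 and 22 in the combination libraries. A count of 0 allows up to 3 counts at this depth, and 95 of the 113 counts of the gene came from 3 libraries of replicate 3. No comparison passed, and the log2 fold change for DAC averaged over SFN was 1.22 ± 0.49 (SE), adjusted p = 0.174.

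Gbp2 is a guanylate-binding protein that gathers on vacuoles and on cytosolic bacteria. Its expression in CPM in replicates 1, 2 and 3 was 10.4, 8.78 and 17.2 in the control libraries, 12.3, 8.36 and 25.1 in the DAC libraries, 12.6, 17.9 and 17.1 in the SFN libraries, and 20.5, 19.7 and 26.6 in the combination libraries. The combination libraries were all above the control and the SFN libraries, and overlapped with DAC through DAC replicate 3. Gbp2 was the only member whose combination and control values did not overlap, as was also so, in that direction, for 15.1% of all genes. It rose under the combination treatment compared to control (log2 fold change 0.92 ± 0.21 (SE), adjusted p = 0.00391) and with SFN averaged over DAC (0.52 ± 0.15 (SE), adjusted p = 0.0145). Within replicates 1, 2 and 3 the average SFN difference was 0.50, 1.12 and 0.041, and the change with SFN did not pass without control replicate 2 (adjusted p = 0.0517). For DAC averaged over SFN it was 0.39 ± 0.15 (SE), adjusted p = 0.138, which did not pass.

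Gbp3 is a neighbor of Gbp2 in the chromosome 3 cluster. The CPM values found in replicates 1, 2 and 3 were 7.87, 5.21 and 13.97 in the control libraries, 9.60, 8.17 and 24.9 in the DAC libraries, 9.27, 8.96 and 11.3 in the SFN libraries, and 13.9, 11.7 and 20.4 in the combination libraries. The combination values were all above the SFN values. Gbp3 rose under the combination treatment compared to control (log2 fold change 0.82 ± 0.19 (SE), adjusted p = 0.00553) and with DAC averaged over SFN (0.62 ± 0.14 (SE), adjusted p = 0.0205), whereas SFN averaged over DAC gave 0.20 ± 0.14 (SE), adjusted p = 0.290.

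Gbp7 has been tied to the delivery of antimicrobial enzymes to vacuoles. For this gene the CPM in replicates 1, 2 and 3 was 6.35, 3.14 and 13.8 in the control libraries, 10.7, 4.02 and 20.3 in the DAC libraries, 5.69, 4.21 and 7.52 in the SFN libraries, and 9.24, 5.36 and 17.1 in the combination libraries. Replicate 3 was the highest and replicate 2 the lowest in every group. Gbp7 rose with DAC averaged over SFN (log2 fold change 0.68 ± 0.14 (SE), adjusted p = 0.0156), and no other comparison passed. The combination treatment gave 0.50 ± 0.20 (SE), adjusted p = 0.0687 against control and 0.76 ± 0.20 (SE), adjusted p = 0.0687 against SFN.

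Mx1 is the nuclear protein that blocks influenza virus in mice with an intact allele. Expression of Mx1 in CPM, for replicates 1, 2 and 3, was 5.38, 1.68 and 7.45 in the control libraries, 4.64, 1.21 and 10.0 in the DAC libraries, 3.72, 0.866 and 2.98 in the SFN libraries, and 5.19, 1.63 and 7.56 in the combination libraries. The SFN library was below the control library in each of the 3 replicates, as was so for 23.8% of all genes, and the combination libraries stood close to control. Mx1 was the only member that fell with SFN single treatment (log2 fold change -0.93 ± 0.24 (SE), adjusted p = 0.0183), in a comparison where 5.65% of all genes fell, and it also fell with SFN averaged over DAC (-0.50 ± 0.16 (SE), adjusted p = 0.0301). The latter did not pass without control replicate 1, control replicate 2, DAC replicate 3, SFN replicate 3 or combination replicate 1. The change with DAC was 0.063 without SFN and 0.90 with SFN, and the test of the difference between these gave 0.84 ± 0.33 (SE), adjusted p = 0.847. Combined with DAC, SFN left Mx1 at -0.022 compared to control (95% interval -0.50 to 0.46).

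Mx2 is the cytoplasmic relative. Its CPM in replicates 1, 2 and 3 was 2.81, 0.473 and 6.78 in the control libraries, 5.38, 1.60 and 12.6 in the DAC libraries, 3.29, 1.51 and 3.11 in the SFN libraries, and 5.33, 3.59 and 8.83 in the combination libraries, from 11 counts in control replicate 2 to 337 in DAC replicate 3. The combination values lay above all SFN values. Mx2 was the only member with a greater than 2-fold change in the combination treatment compared to control (log2 fold change 1.03 ± 0.34 (SE), adjusted p = 0.0317), where 2.66% of all genes were called, and it was also called for DAC averaged over SFN (1.08 ± 0.24 (SE), adjusted p = 0.0202). The differences from control within replicates 1, 2 and 3 were 0.90, 2.71 and 0.38, so that replicate 2 carried the largest. Without control replicate 2 or without combination replicate 2 the change was 0.73 and 0.75, and neither passed (adjusted p = 0.114 and 0.116). It also did not pass without control replicate 1 (1.02, adjusted p = 0.0975) or combination replicate 1 (1.13, adjusted p = 0.0615).

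**Figure D2:**
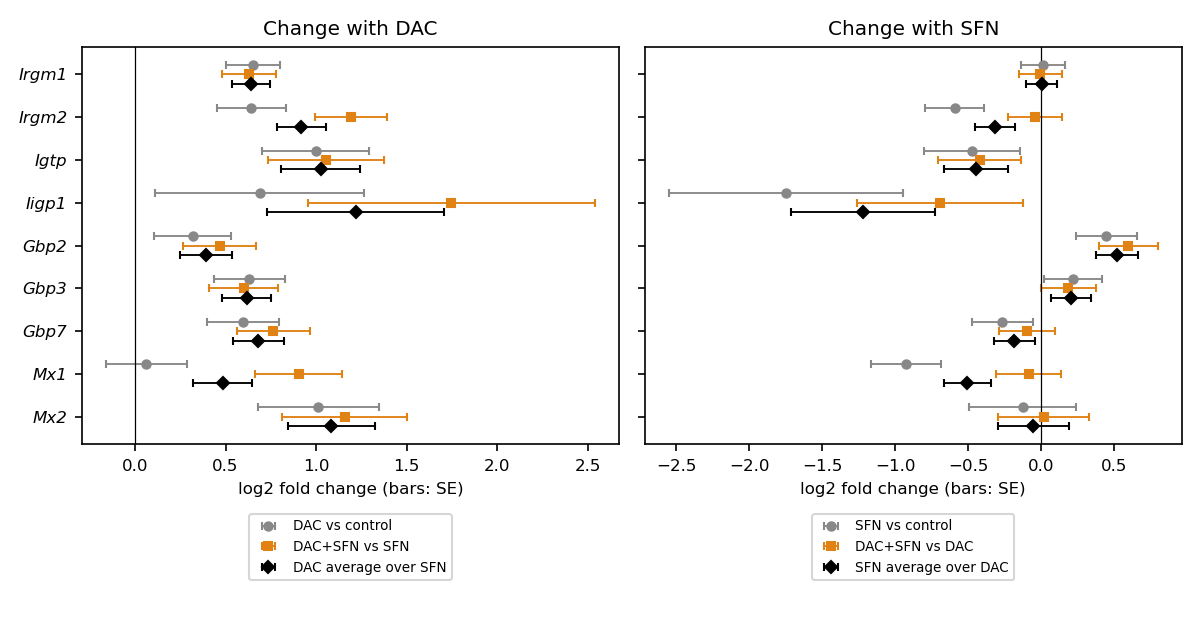
Log2 fold changes of the 9 GTPases with their SE, with DAC on the left (gray, DAC against control, orange, combination against SFN, black, their average) and with SFN on the right (gray, SFN against control, orange, combination against DAC, black, their average). With DAC every point is above 0, and apart from Iigp1 they run from 0.063 for Mx1 to 1.19 for Irgm2. Iigp1 reaches 1.75 in the combination against SFN, but it passed the filter through no SFN library, which favored a rise there. The points with SFN lie on both sides of 0.

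Taking the comparisons one by one, DAC single treatment called no member, with 0.0344% of all genes called at a greater than 2-fold change and 0.18% at an adjusted p under 0.05 alone. All 9 log2 fold changes were positive, with a median of 0.64 where the median of all genes was 0.0049. At an unadjusted p under 0.05, 6 members were higher and none lower, whereas 6.01% of all genes were higher and 4.04% lower. The DESeq2 Wald test called no member either. The count at an adjusted p under 0.05 depended on the setting, as it was 6 of 9 with no filter on low counts and 6 of the 8 members tested when only control and DAC libraries were fitted, against 0 here.

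In the combination treatment compared to control, Irgm1, Irgm2, Gbp2, Gbp3 and Mx2 rose at an adjusted p under 0.05, as did 17% of all genes, and the median of the 9 was 0.60. This count became 3 without control replicate 1, control replicate 2 or combination replicate 2, 2 without replicate 2 as a whole and 0 without replicate 1. Irgm2 and Mx2 were the members lost without each of those 3 libraries. With the combination treatment compared to SFN, all 8 members other than Iigp1 were higher, with a median of 0.83, and all 8 had an unadjusted p under 0.05, as did 9.35% of all genes in that direction. Iigp1 is not counted here, since it passed the filter through a library of each group except SFN. Irgm1 and Irgm2 passed after adjustment, as did 0.937% of all genes. That count was 4 in the DESeq2 Wald test, 7 of 9 with no filter on low counts and 8 of the 8 members tested when only the combination and SFN libraries were fitted. Gbp2, Gbp3 and Mx2 had combination values that did not overlap with those of SFN, as was so for 5.23% of all genes. None passed without SFN replicate 1, SFN replicate 3 or combination replicate 1, 1 passed when any control library, DAC replicate 1 or 2, or combination replicate 2 was left out, and 4 passed without DAC replicate 3 or SFN replicate 2.

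When SFN was added to DAC, no member passed the test, whereas 16.1% of all genes did and 0.928% were called at a greater than 2-fold change. The median of the 9 was -0.041. The differences farthest from 0 were those of Iigp1 (log2 fold change -0.69 ± 0.57 (SE), adjusted p = 0.446) and Gbp2 (0.60 ± 0.20 (SE), adjusted p = 0.0577). Under SFN single treatment no member was called at a greater than 2-fold change, where 1.28% of all genes were. The test of whether the DAC effect depended on SFN called 0 of the 9 and 0 of all genes in edgeR, and at an unadjusted p under 0.05 it gave 1 member higher (Mx1) and none lower, with 3.14% of all genes higher and 2.73% lower. The DESeq2 Wald test also called no member. The interaction intervals were wide, for example -0.88 to 1.18 for Mx2 and -0.47 to 0.43 for Irgm1 on the log2 scale.

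The count of 6 members that rose with DAC on average was sensitive to single libraries. It became 2 without control replicate 1, 3 without DAC replicate 3 and 2 without SFN replicate 3, and with whole replicates left out it became 0 without replicate 1 and 3 without replicate 2. Irgm1 and Irgm2 passed in 14 of 15 such fits, in all but that without replicate 1. Igtp and Mx2 did not pass without control replicate 1, DAC replicate 3 or SFN replicate 3, and Gbp7 did not pass without control replicate 1, SFN replicate 1 or SFN replicate 3. Gbp3 did not pass without any 1 of 7 libraries, control replicate 1 or 2, DAC replicate 3, SFN replicate 1 or 3, or combination replicate 1 or 2, with adjusted p-values of at most 0.0780 in edgeR. Within replicates 1, 2 and 3, 8, 9 and 9 of the 9 members were higher with DAC averaged over SFN, with medians of 0.54, 0.44 and 0.88. The rise of Iigp1 in replicate 3 (1.52) was favored by the filter, which it passed through no SFN library. Higher in all 3 replicates were 8 of the 9 members (all but Iigp1) and 26.6% of all genes.

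**Figure D3:**
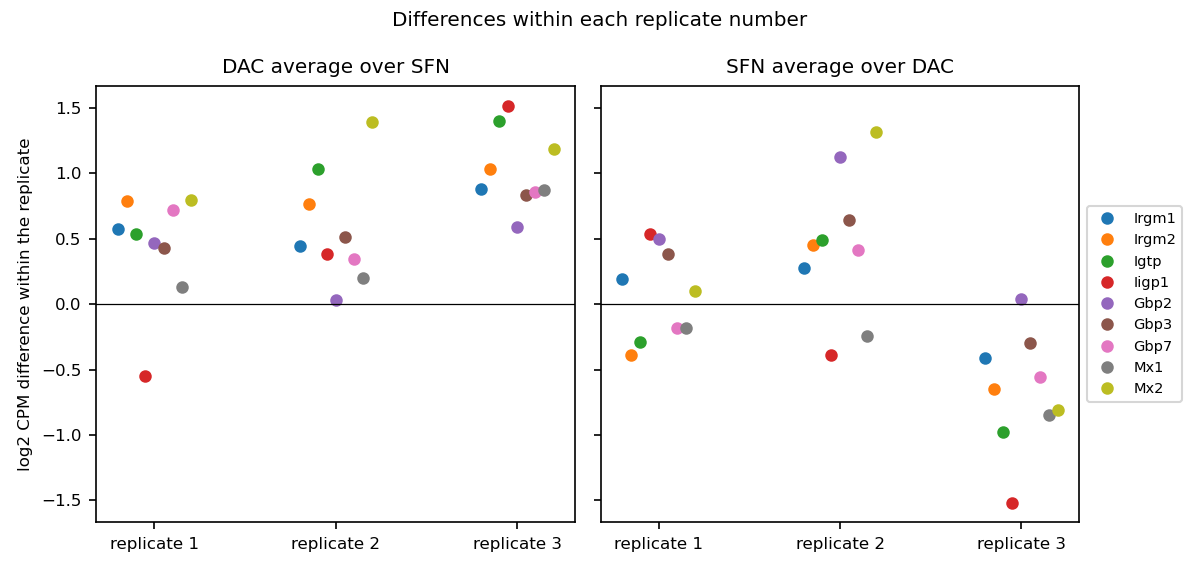
Log2 CPM differences within each replicate number, for DAC averaged over SFN (left) and for SFN averaged over DAC (right), with 1 point per GTPase. With DAC only Iigp1 in replicate 1 is below 0 (-0.55), and with SFN the points sit on both sides of 0 in replicates 1 and 2 and, apart from Gbp2 (0.041), below 0 in replicate 3.

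The response to SFN differed between replicates. Compared to control, SFN single treatment had 6 members higher in replicate 1 (median 0.14 on the log2 CPM scale). In replicate 2, 7 were higher and 1 lower (median 0.41), and in replicate 3 all 9 were lower (median -0.98). The fall of Iigp1 in replicate 3 was favored by the filter, as its SFN library was the only one of replicate 3 under 1 CPM. It therefore adds nothing to the fall of the other members there. A test of whether the change with SFN depended on the replicate number, added after these differences had been seen and left with 4 residual degrees of freedom, passed for 6 members, Irgm1, Irgm2, Gbp2, Gbp3, Gbp7 and Mx2, with adjusted p-values of 0.00798, 0.00602, 0.00464, 0.00812, 0.0455 and 0.00269 in edgeR. It passed for 12% of all genes. The same test for DAC passed for none of the 9 and 0 of all genes, and at an unadjusted p under 0.05 for none of the 9 and 0.352% of all genes. The pooled SFN median of -0.27 (-0.20 without Iigp1) became 0.26 without replicate 3 and -0.56 without replicate 2. Leaving out SFN replicate 3 alone gave 0.29, and leaving out control replicate 3 alone gave 0.0074. The pooled values for SFN are therefore averages over replicates that moved in different directions, with Mx1 lower in all 3 (-0.52, -0.89 and -1.29). The fall of Mx1 did not pass without control replicate 1, control replicate 2 or SFN replicate 3, where it was -0.94, -0.89 and -0.56.

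The level of the GTPases also differed between the replicates. All 8 members other than Iigp1 differed between replicate numbers at an adjusted p under 0.05, as did 33.9% of all genes, in a test also added after the data had been seen. Replicate 3 was above replicate 2 by 2.67-fold for Irgm1, 5.22-fold for Irgm2, 7.12-fold for Igtp, 1.60-fold for Gbp2, 2.05-fold for Gbp3, 3.32-fold for Gbp7, 4.98-fold for Mx1 and 4.27-fold for Mx2. With a greater than 2-fold change 7 of these 8 were called higher, all but Gbp2, as were 1.84% of all genes. Iigp1 was left out of these counts because it passed the filter only through libraries of replicate 3, so its difference between replicates was fixed by the filter. The library numbers follow the replicate numbers, so a library batch and the culture repeat cannot be told apart. Col1a1, a fibroblast collagen gene that was also expressed in these cultures, followed the same order, from 15.6 to 24.1 CPM in replicate 2 over 61.5 to 90.3 in replicate 1 to 245 to 356 in replicate 3, and its part in the difference between replicates was not tested. The summed level of the 8 stromal and endothelial markers (64.6 to 94.6 CPM in replicate 1, 19.9 to 29.6 in replicate 2 and 251 to 367 in replicate 3) was almost all Col1a1 and adds nothing to it. Across the control libraries Col1a1 spanned 15.6 to 312 CPM, Col1a2 2.07 to 6.57 and Pdgfra 2.28 to 2.99. The other 5 of the 8 markers failed the filter.

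**Figure D4:**
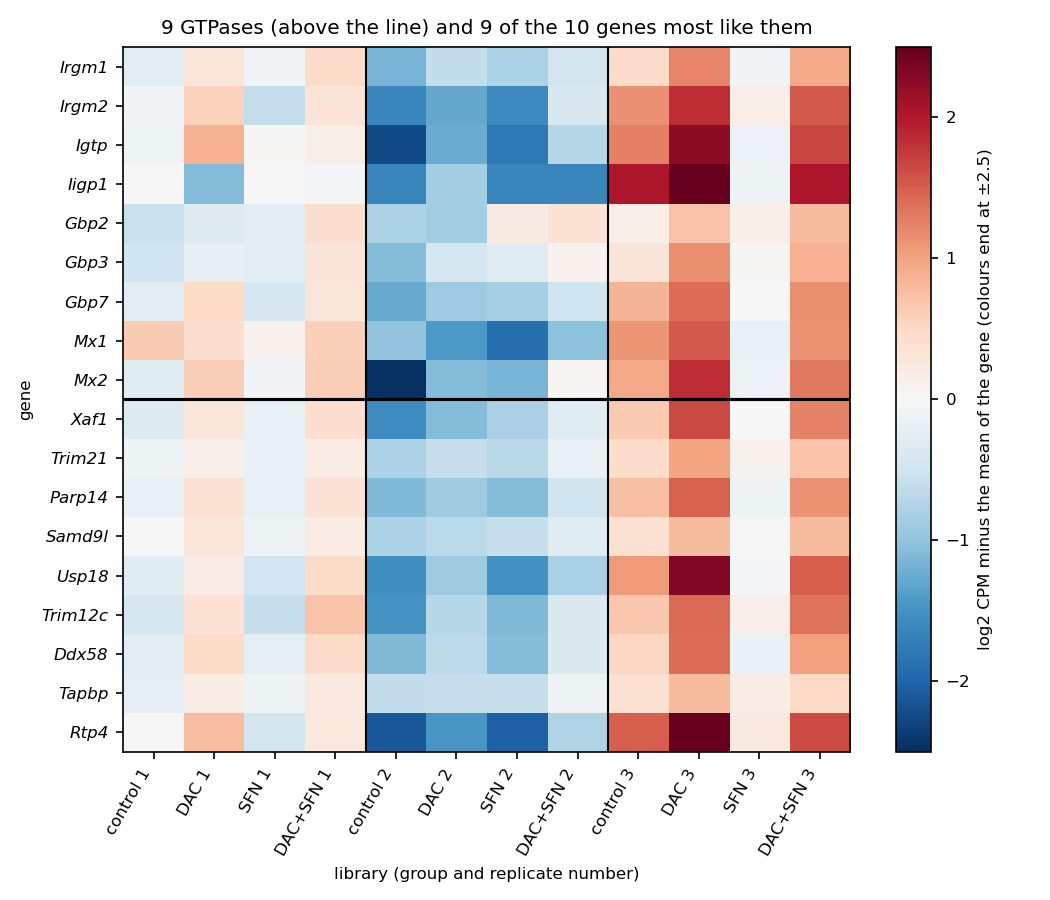
Log2 CPM of each gene minus its mean over the 12 libraries (color scale, ending at ±2.5), with libraries in columns by replicate number and group, the 9 GTPases above the line and 9 of the 10 genes with the most similar profile below it. Replicate 2 is mostly blue and replicate 3 mostly red, except SFN replicate 3, which is within 0.24 of the mean of each gene shown.

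The members largely moved together. Across the 12 libraries, Pearson's r of each member with the mean standardized profile of the other 8 was 0.98 for Irgm1 and Gbp7, 0.97 for Irgm2, 0.97 for Igtp, 0.95 for Mx2, 0.92 for Gbp3, 0.87 for Iigp1, 0.86 for Mx1 and 0.70 for Gbp2. The libraries share the replicate and treatment differences given above, so these values are descriptions. Among the 10 other genes most like the mean of the 9 were Xaf1 (r = 0.995), Trim21 (0.992), Parp14 (0.986), Samd9l (0.980), Usp18 (0.979), Trim12c (0.975), Ddx58 (0.975), Tapbp (0.974) and Rtp4 (0.973). Usp18 encodes a protease that removes ISG15 and dampens the interferon receptor, and Ddx58 the RNA sensor RIG-I. All 10 rose with DAC averaged over SFN, among them Trim21 by 1.35-fold and Usp18 by 2.05-fold (adjusted p = 0.0245 and 0.00647). At an adjusted p under 0.05, 3.07% of all genes rose. The 10 were picked by likeness to a profile that itself holds the DAC difference, so their rise is not a separate result.

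Upstream of the GTPases, the interferon ligands were at or near 0. All 8 listed failed the filter, 6 of them at 0 counts in every library, and Ifnb1 and Ifne had at most 4 and 3 counts. Among the receptors and kinases 0 of 9 passed in either direction with DAC averaged over SFN (median -0.030). With SFN averaged over DAC, the receptor chains Ifnar1 (-0.22 ± 0.043 (SE), adjusted p = 0.00161) and Il10rb (-0.24 ± 0.047 (SE), adjusted p = 0.00170) fell and the kinase Jak1 (0.14 ± 0.037 (SE), adjusted p = 0.0129) rose, each by a small amount.

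Of 10 tested transcription factors and inhibitors, 5 rose with DAC averaged over SFN and none fell, where 3.07% of all genes rose. Irf7, which amplifies interferon production, stood at 3.06 ± 2.66 CPM in control and 7.36 ± 8.11 with DAC, against 1.83 ± 1.10 under SFN and 4.26 ± 3.04 under the combination (mean ± SD, n = 3). Its log2 fold change for DAC averaged over SFN was 1.18 ± 0.19 (SE), adjusted p = 0.00424. Irf9 (0.53 ± 0.11 (SE), adjusted p = 0.0161) and Stat2 (0.35 ± 0.085 (SE), adjusted p = 0.0307), which take part in ISRE binding, rose as well. Irf1 and Irf2 gave 0.024 and 0.013, and Irf8 was below the filter. SFN averaged over DAC lowered Irf7 (-0.63 ± 0.19 (SE), adjusted p = 0.0225), Irf9 (-0.34 ± 0.11 (SE), adjusted p = 0.0308), Stat2 (-0.31 ± 0.085 (SE), adjusted p = 0.0133) and the phosphatase gene Ptpn2.

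Other interferon-stimulated genes rose with DAC alongside the GTPases. Of 21 type I interferon-stimulated genes tested, 17 rose and none fell with DAC averaged over SFN, with a median log2 fold change of 0.78. In that comparison 3.07% of all genes rose. Isg15, a ubiquitin-like modifier, gave 1.17 ± 0.18 (SE), adjusted p = 0.00330, and Ifit1, which binds viral RNA, gave 1.09 ± 0.15 (SE), adjusted p = 0.00199. Of all genes, 1 passed there without the replicate block and 13 passed without replicate 1. For DAC single treatment compared to control, 0 of the 21 passed. With SFN averaged over DAC, 1 of them rose and 7 fell, with 16.1% of all genes higher and 13.5% lower. In the combination treatment compared to control, 4 of the 21 were called at a greater than 2-fold change, namely Ifit1, Ifit3, Isg15 and Oasl2, with log2 fold changes of 1.72, 1.11, 1.13 and 1.33, the highest adjusted p being 0.00730. In that comparison 2.66% of all genes were called. Only 5 of 13 genes typical of interferon gamma passed the filter, and with DAC on average Cxcl10 and Tap1 rose, which encode a chemokine and a peptide transporter subunit. Cxcl10, Tap1 and Nlrc5, an activator of MHC class I genes, were called under the combination treatment compared to control (log2 fold change 1.01, 1.06 and 1.36, the highest adjusted p being 0.00238). In the combination treatment compared to SFN, 7 of the 21 type I genes were called, Ifit1, Isg15, Oasl2, Oas1a, Rsad2, Rtp4 and Trim30a, as were Cxcl10, Irf7 and Usp18, with Oasl2 at 1.51 ± 0.34 (SE), adjusted p = 0.0428. Of all genes, 0.112% were called there.

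**Figure D5:**
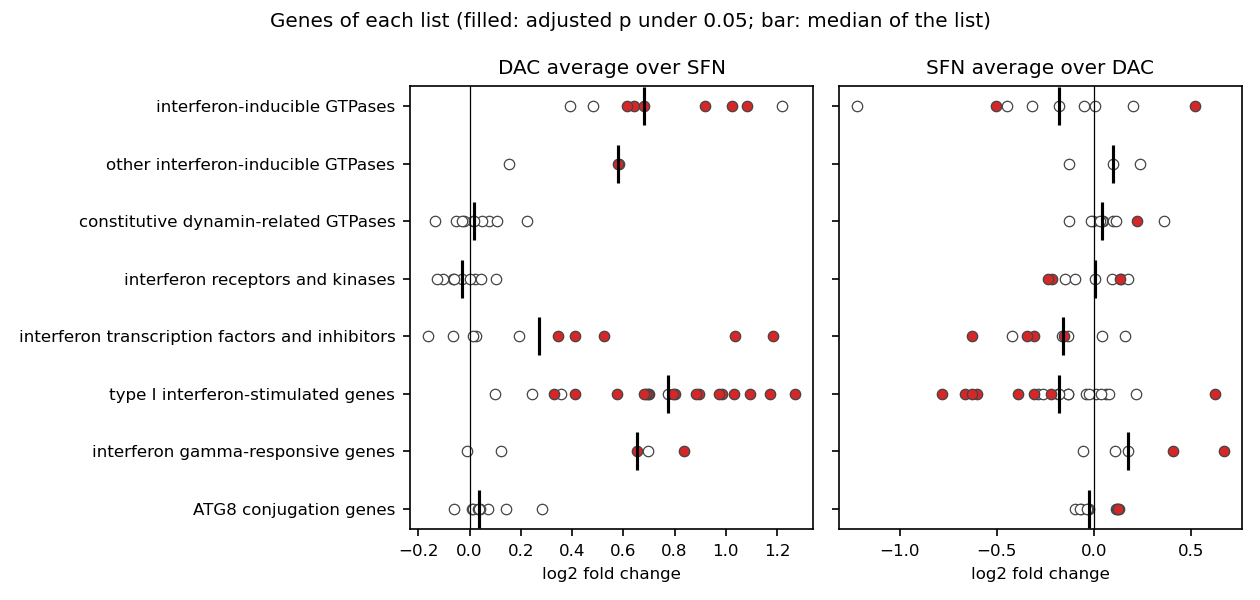
Log2 fold changes of the genes of 8 lists, for DAC averaged over SFN (left) and SFN averaged over DAC (right), with 1 point per gene tested, filled where the adjusted p is under 0.05, and a bar at the median of each list. With DAC, filled points lie in the lists of interferon-inducible genes and of transcription factors and inhibitors, and none in the constitutive dynamin-related GTPases, receptors and kinases, or ATG8 conjugation genes.

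GTPases of the dynamin superfamily that interferon does not induce served as a comparison. None of 10 constitutive dynamin-related genes passed for DAC averaged over SFN (median 0.017), and with SFN averaged over DAC only Mfn2, a mitochondrial fusion protein, rose (0.22 ± 0.045 (SE), adjusted p = 0.00219). As 3.07% of all genes rose with DAC on average, 0 passing in so short a list, here or below, cannot set it apart from genes in general. The ATG8 conjugation genes, whose products direct the GTPases to vacuoles, also had 0 of 10 passing for DAC. Of the related GTPases outside the 9, Ifi47 (Irgd) rose with DAC averaged over SFN (0.58 ± 0.15 (SE), adjusted p = 0.0406), whereas Irgq and Gbp6 gave 0.15 ± 0.057 (SE), adjusted p = 0.133 and 0.58 ± 0.33 (SE), adjusted p = 0.329. Melanocyte markers had 0 of 8 passing for DAC on average, with a median of -0.080, whereas in the combination treatment compared to control Pmel (-0.36 ± 0.10 (SE), adjusted p = 0.0129) and Tyrp1 (-0.17 ± 0.063 (SE), adjusted p = 0.0478) fell and Slc45a2 (0.18 ± 0.055 (SE), adjusted p = 0.0236) rose. Of the 3 stromal markers tested, Col1a2 (-0.74 ± 0.17 (SE), adjusted p = 0.00455) and Pdgfra (-0.54 ± 0.16 (SE), adjusted p = 0.0240) fell with SFN averaged over DAC, and Col1a1 gave -0.057 ± 0.11 (SE), adjusted p = 0.726. The immune marker Lyz2 rose with SFN averaged over DAC (0.86 ± 0.23 (SE), adjusted p = 0.0108) and was called in the combination treatment compared to control (1.02 ± 0.33 (SE), adjusted p = 0.0289), and for DAC averaged over SFN it gave 0.16 ± 0.23 (SE), adjusted p = 0.749. The part of these markers in the changes of the GTPases was not tested.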

How the data were processed

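RNA-seq counts of 12 libraries, 3 per group, were analysed, with groups and replicate numbers taken from the labels. Per the sources, the authors used Trimmomatic 0.38 for trimming and TopHat2 2.1.1 for alignment to mm10, and deposited raw counts per gene made with HTSeq. The annotation and strand setting of the counting are not given in the sources used here. Genes with at least 1 CPM in 3 libraries (11638) were retained, scaled by TMM and tested two-sided with glmQLFTest (edgeR 4.0.16, legacy fit, R 4.3.3) in 1 model of all 12 libraries, with the replicate number as a block since the study corrected for a batch that its text does not name. p-values were adjusted by Benjamini-Hochberg over all genes tested, and a gene was called at an adjusted p under 0.05 and a fold change above 2. Each SE was derived from the log2 fold change and its F statistic. Prior counts were 0.125 for fold changes and 2 for log2 CPM. Values are relative to the library total and limited by counting error at low counts, as for Iigp1. RPKM used GENCODE M21 exon lengths.

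Same-numbered libraries of different groups had deviations from the group means that went together (mean r = 0.544 over 18 pairs, 0.270 to 0.732), so the numbers pair the samples. Replicates were not copies of each other. The 9 members, the gene lists and the tests were chosen with earlier results of these data known, so no adjustment over a list alone is given. All members are named, as are listed genes called in a comparison between groups (at most 6 per list), the transcription factors, and the 10 genes most correlated with the members, apart from 1 gene that is not reported here. Ifnar1, Il10rb, Jak1, Ptpn2, Mfn2, Isg15, Ifit1, Ifi47, Irgq, Gbp6, Col1a1 and the markers were named after their values were seen where this rule did not name them. Alternatives were DESeq2 size factors, its Wald test (DESeq2 1.42.0), other filters, fits, prior counts and samples, no block, no fold threshold and each library left out. The edgeR fit was first tested on simulated counts. Figures used matplotlib 3.10.9 in Python 3.11.15.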

Additional observations from a re-analysis of the deposited data

How the results depend on the processing

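Of 1656 values of single members under alternative settings, 1367 kept direction and side of the threshold, 94 lost it, 82 gained it and 113 changed direction; the cause was not tested. For the replicate block, the paired fit was the one reported, and with no replicate block 0 members were called with DAC+SFN against control, 0 with DAC+SFN against SFN and 0 for DAC averaged over SFN, in place of 1, 1 and 2. Calls at a greater than 2-fold change depended on the setting elsewhere too. For DAC against control, no filter gave 1 in place of 0. For DAC+SFN against control, the DESeq2 Wald test, the edgeR version 4 fit and the robust fit gave 0 in place of 1, and no fold threshold gave 5. For DAC+SFN against SFN, no filter and only the groups compared gave 3, and no fold threshold 2. For DAC averaged over SFN, the DESeq2 Wald test and the robust fit gave 1 in place of 2, and no fold threshold 6. Without a fold threshold SFN against control gave 1 and SFN averaged over DAC gave 2 in place of 0. At an adjusted p under 0.05 alone, SFN against control gave 1 member here, 2 with the DESeq2 Wald test, the edgeR version 4 fit and only the groups compared, and 3 with no filter. DAC+SFN against DAC gave 0 here and 1 with no filter and only the groups compared. SFN averaged over DAC gave 2 here, 4 with no filter and the edgeR version 4 fit, and 1 with the robust fit. DAC+SFN against SFN gave 2 here and 1 with the robust fit.

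With libraries left out the calls ranged from 0 to 1 for SFN against control, 0 to 2 for DAC+SFN against control, 0 to 2 for DAC+SFN against SFN, 0 to 3 for DAC averaged over SFN and 0 to 1 for SFN averaged over DAC, and stayed at 0 for the other 3 comparisons. Where 1 library was left out of a group, its other 2 were assumed to vary as the rest.

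Log2 fold changes that changed direction under other settings were mostly near 0. With no replicate block these were -0.10 for Irgm1 in SFN against control, 0.070 for Iigp1 in DAC+SFN against control, -0.17 for Mx2 in DAC+SFN against DAC, -0.081 for Irgm1 for SFN averaged over DAC and 0.033 for Irgm1 in the interaction of DAC and SFN. With only the groups compared these were -0.0090 for Irgm1 in SFN against control and 0.0062 for Irgm1 in DAC+SFN against DAC. With the DESeq2 Wald test these were 0.13 for Mx2 in SFN against control, 0.0085 for Iigp1 in DAC+SFN against control, 0.0054 for Irgm1 in DAC+SFN against DAC, 0.016 for Irgm2 in DAC+SFN against DAC, 0.17 for Mx2 for SFN averaged over DAC and -0.015 for Igtp in the interaction of DAC and SFN. With the DESeq2 size factors these were 0.0016 for Iigp1 in DAC+SFN against control. With a prior count of 2 these were 0.00025 for Iigp1 in DAC+SFN against control. With no filter on low counts these were -0.0052 for Mx2 in DAC+SFN against DAC and -0.0077 for Irgm1 for SFN averaged over DAC. With the edgeR version 4 fit these were -0.11 for Mx2 in DAC+SFN against DAC and -0.0057 for Irgm1 for SFN averaged over DAC. With at least 10 counts in every library these were -0.0011 for Irgm1 for SFN averaged over DAC. With libraries left out, 26 changed direction at least once. For DAC against control the ranges were Gbp2 -0.021 to 0.55 and Mx1 -0.36 to 0.28. For SFN against control the ranges were Irgm1 -0.17 to 0.29, Igtp -0.96 to 0.23, Iigp1 -2.71 to 0.53, Gbp3 -0.054 to 0.49, Gbp7 -0.56 to 0.11 and Mx2 -0.51 to 0.63. For DAC+SFN against control the ranges were Iigp1 -0.084 to 0.089 and Mx1 -0.082 to 0.021. For DAC+SFN against DAC the ranges were Irgm1 -0.10 to 0.20, Irgm2 -0.30 to 0.18, Gbp7 -0.26 to 0.050, Mx1 -0.30 to 0.34 and Mx2 -0.31 to 0.45. For DAC+SFN against SFN the ranges were Iigp1 -0.54 to 2.70. For SFN averaged over DAC the ranges were Irgm1 -0.12 to 0.23, Gbp7 -0.40 to 0.060 and Mx2 -0.41 to 0.54. For interaction of DAC and SFN the ranges were Irgm1 -0.28 to 0.20, Igtp -0.59 to 0.63, Iigp1 -1.21 to 2.02, Gbp2 -0.068 to 0.50, Gbp3 -0.28 to 0.32, Gbp7 -0.15 to 0.46 and Mx2 -0.34 to 0.51. Counts of 16 to 27 per CPM limit what could be seen for Iigp1, Igtp, Mx1 and Mx2.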
